A study of Mus musculus with 16 samples.

Results

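In single cells of the mouse cortex, 10 genes of glucose breakdown were followed: Aldoa, Aldoc, Pgk1, Pkm, Gapdh, Eno1, Eno2, Ldha, Ldhb and Tpi1. They were listed by symbol, with earlier results of these data known. They are among the 30389 genes with a row in any of the deposited tables. Their level was measured as CPM (counts per 1e6 UMIs): the unique molecular identifiers (UMIs) of a gene, summed over cells of 1 library, set against all UMIs of those cells. Drop-seq captures each transcript once at its 3′ end in a droplet with a barcoded bead, so CPM was not divided by gene length, and levels are compared between cells and not between genes, except as shares of isozyme pairs.

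The cortex came from 17 months old mice of both sexes, either THY-Tau22 or their wild-type (WT) littermates, with 16 mice and 16 libraries by the study's account. The titles of WT male 1 and THY-Tau22 female 1 share an animal number, although the titles differ in both genotype and sex. Both were kept as labelled, and leaving out either gave 0 genotype calls among the 10 genes in each contrast. THY-Tau22 mice are heterozygous for a mutant human tau transgene that a Thy1 promoter drives in neurons, and the line is kept by crosses to C57Bl6/J. By the labels there were 4 libraries of males per genotype, and among females 3 WT and 5 THY-Tau22 libraries. WT male 3 and THY-Tau22 male 4 shared 2952 of their 3000 barcodes (98.4%), against at most 12 in any other pair of tables, and both were left out. This left 6 libraries of males, 3 of each genotype, and 8 of females, 3 WT and 5 THY-Tau22, with 24578 cells with 200 to 7000 detected genes.

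Glycolysis splits glucose into pyruvate in the cytosol. Aldolase (Aldoa, Aldoc) cuts the doubly phosphorylated fructose, triosephosphate isomerase (Tpi1) interconverts the products, and Gapdh, Pgk1, enolase (Eno1, Eno2) and pyruvate kinase (Pkm) carry them to pyruvate with a gain of ATP. Lactate dehydrogenase then interconverts pyruvate and lactate as a tetramer of A (Ldha) and B (Ldhb) subunits. In the brain, Aldoc is a known astrocyte gene, Eno2 encodes neuron-specific enolase, and lactate is exchanged between cells through monocarboxylate transporters.

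Cells were placed into classes by clustering on genes other than these 10 and their pathway, and each cluster was named from marker genes. In the 14 libraries, 6968 cells were microglia-like, 4544 astrocyte-like, 4356 oligodendrocyte-like, 3343 endothelial-like, 1224 neuron-like and 1106 were like oligodendrocyte precursor cells (OPC); 7.41% of cells stayed unnamed. The class names are used below without "-like". The 9 astrocyte markers summed to 28872 CPM in astrocytes and to 786 to 2935 CPM in the other classes, and the 10 neuron markers to 27195 CPM in neurons. One of the microglia clusters was led by the cytokine genes Ccl4, Ccl3 and Tnf. In THY-Tau22 male 3, 31.2% of cells were unnamed, against 4.22 to 7.59% in the other libraries compared.

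Measures of library make-up moved with the groups in males, where library quality and genotype cannot be told apart. Ribosomal protein genes took 0.947 to 1.17% of the UMIs of WT males and 1.60 to 2.04% of those of THY-Tau22 males. The nuclear RNA Malat1 took 5.05 to 6.28% in WT males and 2.92 to 4.10% in THY-Tau22 males, and mitochondrial mRNA 0.476 to 0.724% and 1.08 to 1.55%. All mitochondrial genes together, which are part of the CPM total, went the other way, with 17.8 to 23.6% in WT males and 12.5 to 14.3% in THY-Tau22 males. In females these ranges overlapped between genotypes, and the 3 WT females spanned 0.894 to 2.42% for ribosomal protein genes. Kept UMIs per library ran from 755945 to 2089367. The mouse Mapt row ran from 226 to 298 CPM in WT males and 268 to 364 CPM in THY-Tau22 males, so it did not separate the genotypes, and whether it holds reads of the human transgene was not tested.

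The 10 genes had 24869 UMIs in the 14 libraries, of which Aldoc held 12078 and Ldhb 4069. Aldoa had 2190 UMIs, Pkm 1654, Tpi1 1557, Eno1 1277 and Ldha 1227. Eno2 had 341 UMIs, Pgk1 326 and Gapdh 150, or 2 to 17 per library. Low Gapdh counts stood beside shared sequence. Of 89 windows of 60 bases, the length of the cDNA reads, in the last 500 bases of the Gapdh transcript, 87.6% occurred exactly in other annotated genes, 99 of them, 95 being pseudogenes. For Eno1 the share was 69.7%, with Eno1b and 3 pseudogenes, and for Ldhb 19.1%, with Gm5514, a pseudogene row that held 921 UMIs. Pgk1 had 5.62% and the other 6 genes 0%. Gapdh, Eno1 and Ldhb counts are therefore uncertain by an amount that depends on how reads with several matches were handled, which the sources used here do not give.

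**Figure D1:**
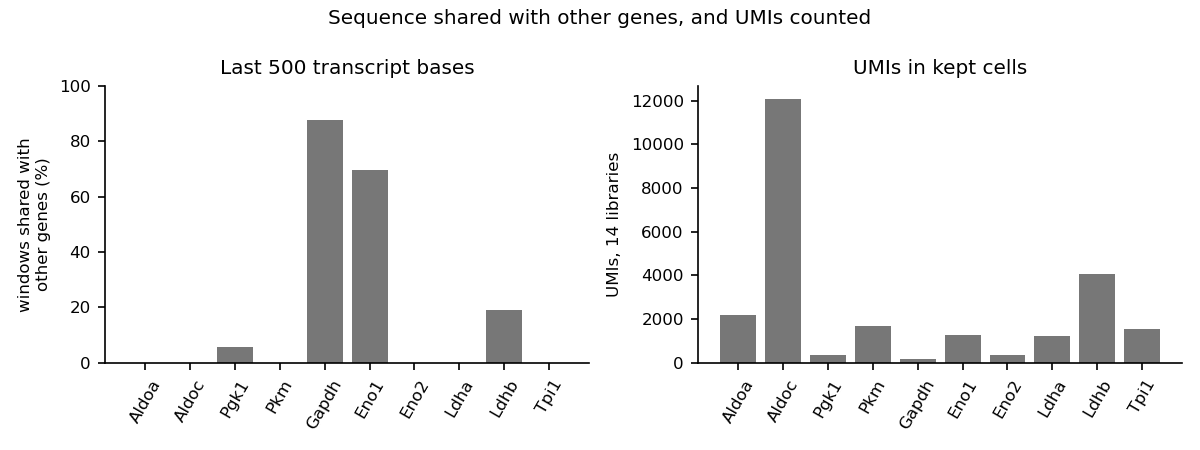
Left: the percent of 89 windows of 60 bases in the last 500 transcript bases of each gene that occur exactly in another annotated gene. Right: the UMIs of each gene in the cells of 14 libraries. Gapdh has the highest shared percent, 87.6%, and the fewest UMIs, 150.

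Astrocytes carried the most of these transcripts as a sum, mainly through Aldoc, with a mean of 3608 CPM there. Pkm and Eno2 had their highest mean in neurons and Ldha in endothelial cells. The 10 genes together made up 5177 ± 2307 CPM of astrocytes (SD, n = 14 libraries), 1025 ± 519 CPM of neurons, 886 ± 409 CPM of OPC, 742 ± 278 CPM of microglia, 606 ± 282 CPM of endothelial cells and 431 ± 213 CPM of oligodendrocytes. Differences between classes were tested within mice, by an exact two-sided sign-flip test on log2(CPM + 10) over the 14 libraries, for 15 class pairs and 3616 genes with a mean of at least 50 CPM. The smallest p this allows is 0.000122. A pair was called at an adjusted p under 0.05 (Benjamini-Hochberg over all genes and pairs) with a difference of at least 0.5 on the log2 scale. Of the 10 genes, 7 reached 50 CPM, and 66 of their 105 class pairs were called, or 7 for Aldoa, 10 for Aldoc, 5 for Pkm, 12 for Eno1, 9 for Ldha, 14 for Ldhb and 9 for Tpi1. Over all genes, 55.3% of pairs were called. The classes were set by other genes of the same cells, and the part of this in the share called was not tested.

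**Figure D2:**
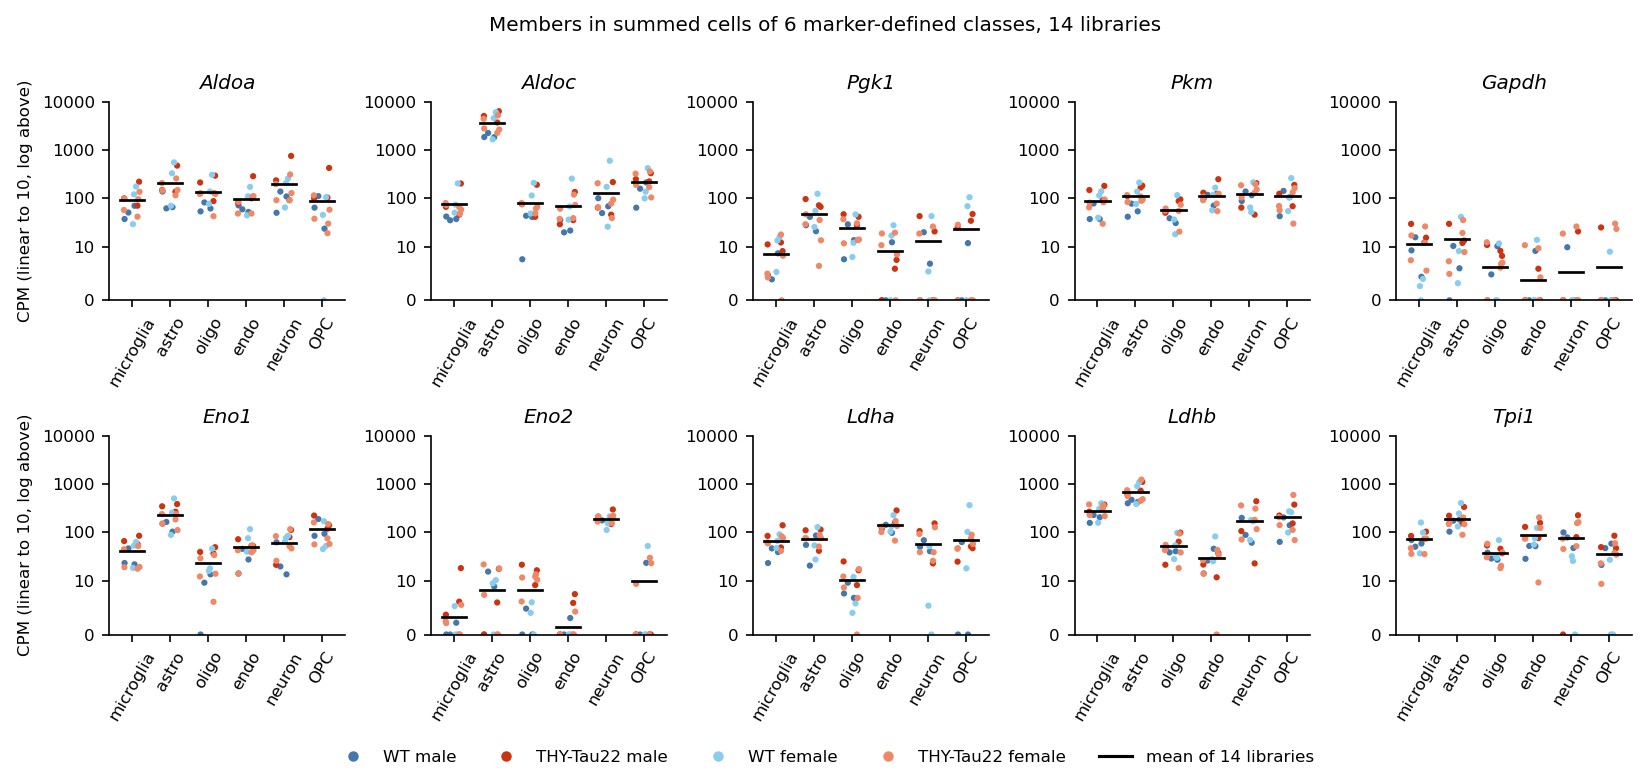
CPM of each of the 10 genes in the summed cells of 6 classes, on a scale that is linear up to 10 CPM and logarithmic above. Each point is 1 of 14 libraries, coloured by genotype and sex, and lines are means. Aldoc stands at 1659 to 6327 CPM in astrocytes, Eno2 at 113 to 299 CPM in neurons, and Ldha is highest in endothelial cells.

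Aldoc, the brain aldolase, was concentrated in astrocytes. It reached 3608 ± 1633 CPM in astrocytes, with a lowest library of 1659 and a highest of 6327. In the other classes its mean was 217 ± 107 CPM in OPC, 130 ± 148 in neurons, 78.7 ± 56.7 in oligodendrocytes, 77.0 ± 54.9 in microglia and 68.9 ± 64.0 in endothelial cells. No library of another class came near the astrocyte range, the highest being 598 CPM in neurons. Astrocytes were above microglia by 5.42 on the log2 scale and above OPC by 4.01, in 14 of 14 mice (exact sign-flip adjusted p = 0.000385 for both). Outside astrocytes and OPC, Aldoc stood at 1.84 to 3.42% of its astrocyte level, and the 9 astrocyte markers, as a sum, at 2.72 to 5.28%. In OPC these values were 5.51% for Aldoc and 10.2% for the markers. Relative to astrocytes, Aldoc was thus lower outside them than the summed markers were. Taken singly, 4 of the 9 markers stood above Aldoc in microglia, in oligodendrocytes and in OPC, 3 in neurons and 7 in endothelial cells. Transcripts free in the droplets cannot be told apart from expression in those classes. The genes most like Aldoc over the 84 sums of 14 libraries and 6 classes were Ntsr2 and Mt3 (Pearson r = 0.94 each) and Cldn10 (r = 0.93), of which Ntsr2 and Cldn10 were among the astrocyte markers.

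Aldoa, the aldolase of most tissues, was spread over all classes. Its mean was 204 ± 151 CPM in astrocytes, 194 ± 179 in neurons, 133 ± 83.1 in oligodendrocytes, 98.2 ± 64.4 in endothelial cells, 92.9 ± 55.1 in microglia and 88.2 ± 104 in OPC. Astrocytes and neurons were not told apart (log2 difference of 0.11, exact sign-flip adjusted p = 0.614), and neither were microglia and endothelial cells (adjusted p = 0.471). The highest neuron value, 752 CPM from 73 UMIs, came from THY-Tau22 male 3. The genes most like Aldoa were the mitochondrial mt-Nd4 (r = 0.72) and mt-Cytb (r = 0.71).

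In counted UMIs, the make-up of the aldolase pair therefore differed between classes. Outside astrocytes, Aldoc stood near the level of the astrocyte markers, as given above. The part of free astrocyte transcripts in the shares of those classes was not tested. Aldoc made 95.0 ± 1.72% of Aldoc and Aldoa UMIs in astrocytes (SD, n = 14), 73.7 ± 14.4% in OPC (n = 12), 45.4 ± 10.8% in microglia (n = 14), 44.4 ± 17.9% in neurons (n = 12), 38 ± 6.64% in oligodendrocytes (n = 13) and 37.9 ± 10.6% in endothelial cells (n = 13). A library counted where it held at least 10 UMIs of the pair. Astrocytes were above each other class in every mouse compared. Of 15 class pairs, 10 passed the exact sign-flip test at an adjusted p under 0.05, over the share tests of the 3 isozyme pairs. Microglia and oligodendrocytes differed by 6.85 percentage points (adjusted p = 0.0349), and neurons and microglia were not told apart (adjusted p = 0.566).

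**Figure D3:**
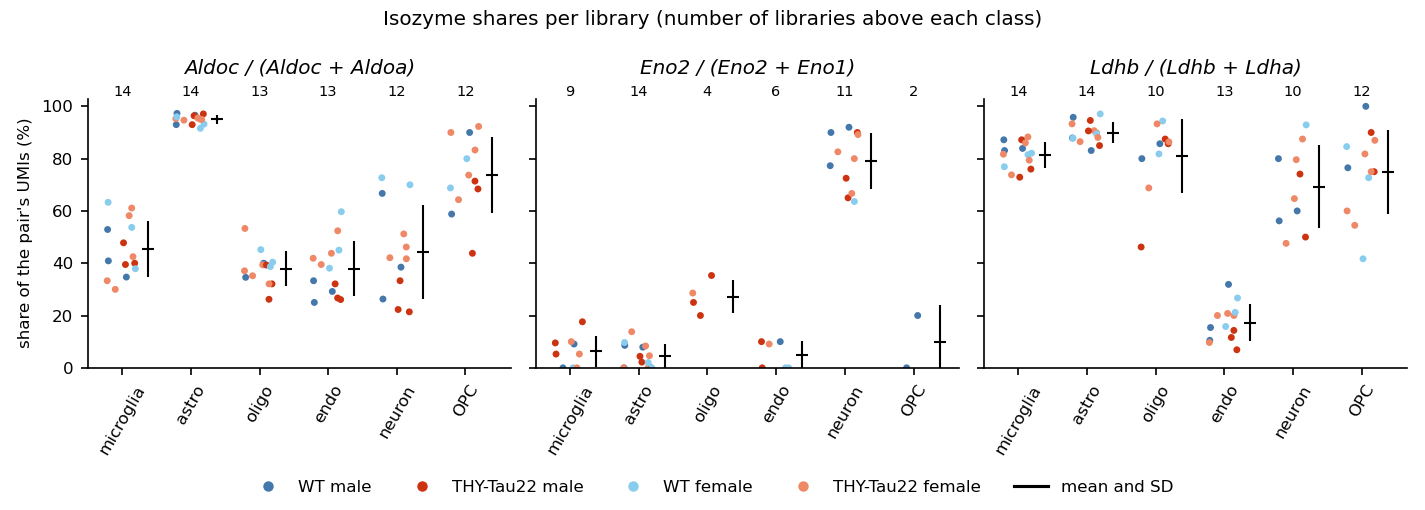
Share of Aldoc in Aldoc and Aldoa, of Eno2 in Eno2 and Eno1, and of Ldhb in Ldhb and Ldha, in percent of UMIs, by class. Points are libraries with at least 10 UMIs of the pair, numbered above, and bars are mean and SD. Transcripts free in the droplets were not removed, and Eno1 and Ldhb counts are uncertain because of sequence shared with other genes. The Aldoc share is 95.0% in astrocytes, the Eno2 share 79.0% in neurons, and the Ldhb share 17.3% in endothelial cells.

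Among the enolases, Eno2 was found in neurons, at 188 ± 45.2 CPM (113 to 299 over the 14 libraries). Its mean elsewhere was 1.48 to 9.89 CPM, and it was absent from 3 to 10 of 14 libraries in each other class. In all neurons together Eno2 had 231 UMIs, against 4 in endothelial cells, 7 in OPC, 16 in microglia, 27 in oligodendrocytes and 29 in astrocytes. Eno2 stayed under 50 CPM on average, so its level was not tested. It was most like Syt1 (r = 0.93), a synaptic vesicle protein and neuron marker, and Grin2a (r = 0.92), an NMDA receptor subunit. Eno1, the widespread enolase, was highest in astrocytes at 229 ± 119 CPM, then OPC at 116 ± 57.5, neurons at 61.7 ± 33.5, endothelial cells at 49.4 ± 26.5, microglia at 42.2 ± 22.2 and oligodendrocytes at 23.2 ± 15.7. Astrocytes were above OPC by 0.91 on the log2 scale, in 13 of 14 mice (exact sign-flip adjusted p = 0.000949). Neurons, endothelial cells and microglia were not told apart in Eno1 (adjusted p = 0.116 to 0.394).

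Eno2 made 79.0 ± 10.8% of Eno2 and Eno1 UMIs in neurons (n = 11) and 4.39 ± 4.55% in astrocytes (n = 14), a difference of 73.6 percentage points seen in 11 of 11 mice (exact sign-flip adjusted p = 0.00255). Against microglia, at 6.31 ± 5.94% (n = 9), the difference was 72.7 points in 7 of 7 mice (adjusted p = 0.0280). Only 4 of 15 class pairs had the 6 mice the test required, and 2 of them passed. The end windows of Eno1 were shared with other genes at 69.7% and those of Eno2 at 0%. The percentages therefore depend on how reads with several matches were handled. In oligodendrocytes the share was 27.2 ± 6.43%, from 4 libraries only, all of them THY-Tau22. No WT library held 10 UMIs of the pair there.

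Lactate dehydrogenase divided the classes differently. Ldhb, the B subunit, reached 690.4 ± 292 CPM in astrocytes, 283 ± 83.9 in microglia, 209 ± 142 in OPC, 171 ± 124 in neurons, 53.0 ± 27.2 in oligodendrocytes and 29.4 ± 19.9 in endothelial cells. All class pairs but neurons against OPC were called (that pair: adjusted p = 0.257). Microglia were above oligodendrocytes by 2.28 and above endothelial cells by 3.00 on the log2 scale, in 14 of 14 mice (exact sign-flip adjusted p = 0.000385). Ldhb in microglia stood at 42.6% of its astrocyte level and in neurons at 23.3%, above every astrocyte marker in those classes (0.909 to 7.88%). In endothelial cells it stood at 4.69%, within the markers' range of 1.51 to 6.52%. The gene most like Ldhb was its pseudogene copy Gm5514 (r = 0.80).

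Ldha, the A subunit, was highest in endothelial cells at 144 ± 55.7 CPM (67.8 to 286) and lowest in oligodendrocytes at 10.2 ± 6.32 CPM, a log2 difference of 2.92 in 14 of 14 mice (exact sign-flip adjusted p = 0.000385). Astrocytes had 72.1 ± 32.5 CPM, OPC 70.8 ± 90.6, microglia 65.2 ± 29.3 and neurons 59.1 ± 46.0. These 4 were not told apart (adjusted p = 0.255 to 0.990), and each was above oligodendrocytes. Oligodendrocytes were thus low in both subunits, with 33 Ldha and 157 Ldhb UMIs in all.

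Ldhb made 90.0 ± 4.07% of Ldhb and Ldha UMIs in astrocytes (n = 14), 81.4 ± 5.02% in microglia (n = 14), 81.0 ± 14.2% in oligodendrocytes (n = 10), 74.9 ± 16.2% in OPC (n = 12) and 69.3 ± 15.8% in neurons (n = 10). In endothelial cells it made 17.3 ± 7.09% (n = 13), with a highest library of 31.9%, below the lowest library of any other class, 41.7%. The difference from astrocytes was 72.7 percentage points in 13 of 13 mice (exact sign-flip adjusted p = 0.00166). The end windows of Ldhb were shared with another gene at 19.1% and those of Ldha at 0%, so these percentages also depend on the handling of such reads. Of 15 pairs, 8 passed: the 5 with endothelial cells, and astrocytes above microglia by 8.56 points, OPC by 15.2 and neurons by 19.3 (adjusted p = 0.00184, 0.0231 and 0.0117).

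Tpi1 followed the astrocyte pattern at a lower contrast, with 194 ± 87.6 CPM in astrocytes, 88.8 ± 53.3 in endothelial cells, 77.3 ± 65.3 in neurons, 71.9 ± 33.8 in microglia, 37.8 ± 14.6 in oligodendrocytes and 35.9 ± 24.4 in OPC. Astrocytes were above each other class (log2 difference of 1.16 to 2.31, called in all 5 pairs). Endothelial cells, neurons and microglia were not told apart (adjusted p = 0.438 to 0.584). Pkm, pyruvate kinase, was the most even, with 125 ± 58.7 CPM in neurons, 113 ± 49.6 in endothelial cells, 111 ± 48.8 in astrocytes, 110.1 ± 64.6 in OPC and 86.9 ± 45.6 in microglia. Its 5 called pairs were those with oligodendrocytes, which had 56.5 ± 28.4 CPM. Pgk1 was under the limit for testing, with 47.1 ± 33.0 CPM in astrocytes, 24.2 ± 14.4 in oligodendrocytes and 8.55 to 22.8 elsewhere. Gapdh means lay between 3.83 and 14.3 CPM. Its rows held 5 to 48 UMIs per class and support no order of classes. For Pkm and Gapdh no gene was closely alike, with the highest values at r = 0.55 (Atp5b, Abr and Ndufa4) and 0.49 (Slc25a5 and Ndufa11).

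Of 54 other genes listed as neighbours of the pathway (other steps, transport, pyruvate entry, side paths, regulators), 16 reached 50 CPM. Of their 240 class pairs 153 were called, against 55.3% of pairs over all genes. By mean level, 6 of the 16 were highest in astrocytes, 5 in endothelial cells, 2 in oligodendrocytes and 1 each in microglia, neurons and OPC. For Gpi1, Pfkp, Mpc1, Mpc2, Tkt and Hif1a the top class was not called above every other class. Hk2, the inducible hexokinase that starts glycolysis, had 275 ± 73.6 CPM in microglia and 1.67 to 8.32 CPM elsewhere. Slc2a1, the glucose transporter of the blood-brain barrier, had 661 ± 203 CPM in endothelial cells and 21.1 to 53.1 elsewhere, and Slc16a1, the lactate transporter MCT1, 391 ± 137 and 18.2 to 61.2. Bsg, the chaperone of MCT1, had 4704 ± 2245 CPM in endothelial cells and at most 246 elsewhere. Endothelial cells were above the other 5 classes in each of these 3. Slc2a3, the neuronal glucose transporter, had 56.2 ± 32.4 CPM in neurons, and Slc16a7, the lactate transporter MCT2, 39.0 ± 26.1 CPM in neurons and 28.7 ± 12.3 in microglia, both untested. Bpgm (224 ± 52.1 CPM) and the pentose phosphate gene Taldo1 (539 ± 141 CPM) were highest in oligodendrocytes. Pfkp, a phosphofructokinase, had its highest mean in neurons at 179 ± 66.1 CPM, and the pair with astrocytes (128 ± 41.2 CPM) was not called.

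Promoter windows of the aldolase and lactate dehydrogenase pairs are printed because the make-up of both pairs differed between classes. They run from 250 bases before to 50 after a gene start in RefSeq, build GRCm38.p6 (the first window listed), 5′ to 3′ on the gene's strand. Capitals mark ACGTG or GCGTG on either strand (CACGT or CACGC when read on the printed strand), the core bound by hypoxia-inducible factors. Where CACGTG occurs, ACGTG and CACGT overlap and count as 2 matches. The windows are chr11:78322823-78323122 (+) for Aldoc, chr7:126800398-126800697 (-) for Aldoa, chr7:46845554-46845853 (+) for Ldha and chr6:142507908-142508207 (-) for Ldhb.
Aldoc: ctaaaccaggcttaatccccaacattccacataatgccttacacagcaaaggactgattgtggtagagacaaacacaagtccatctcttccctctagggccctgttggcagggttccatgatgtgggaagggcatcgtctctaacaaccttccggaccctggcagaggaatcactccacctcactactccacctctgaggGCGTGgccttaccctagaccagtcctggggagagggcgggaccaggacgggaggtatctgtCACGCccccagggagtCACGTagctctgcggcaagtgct
Aldoa: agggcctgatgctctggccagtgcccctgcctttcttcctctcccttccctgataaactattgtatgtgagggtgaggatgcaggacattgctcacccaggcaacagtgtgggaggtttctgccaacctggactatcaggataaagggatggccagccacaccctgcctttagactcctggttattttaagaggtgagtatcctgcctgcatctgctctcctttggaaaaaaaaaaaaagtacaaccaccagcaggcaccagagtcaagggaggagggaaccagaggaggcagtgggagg
Ldha: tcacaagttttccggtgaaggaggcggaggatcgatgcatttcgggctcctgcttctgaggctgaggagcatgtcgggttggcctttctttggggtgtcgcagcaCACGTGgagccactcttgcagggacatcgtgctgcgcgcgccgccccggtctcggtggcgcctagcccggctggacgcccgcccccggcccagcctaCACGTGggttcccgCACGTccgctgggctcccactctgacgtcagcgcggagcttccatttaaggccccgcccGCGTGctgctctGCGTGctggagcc
Ldhb: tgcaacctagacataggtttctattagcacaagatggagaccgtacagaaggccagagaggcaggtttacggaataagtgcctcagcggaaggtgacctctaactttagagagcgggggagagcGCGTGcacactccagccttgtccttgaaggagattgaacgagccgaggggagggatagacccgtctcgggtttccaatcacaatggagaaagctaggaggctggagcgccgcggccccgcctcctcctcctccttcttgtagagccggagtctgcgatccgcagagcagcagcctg
Ldha held 7 matches, Aldoc 3, Ldhb 1 and Aldoa 0. The windows sit at unlike starts, since those of Aldoc and Ldhb lie at the outer start of the annotated gene and those of Aldoa and Ldha inside it. The other listed windows held 1 match each for Aldoa (at both other starts), 1 for Aldoc and 2 for Ldha, and starts without a window were not searched. Over the first windows of the 10 genes, 6 held a match (60.0%), against 43.8% of 27025 gene windows, and 3 held 3 or more (30.0%), against 9.11%. A match describes letters only and is no binding site.

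The genotype question was asked within each sex, over both sexes and as the difference of the sexes, by edgeR's quasi-likelihood test on summed UMIs in all cells and in the 6 classes. A gene was called at an adjusted p under 0.05 with a log2 fold change of at least 0.5 in size. Of the 70 combinations of gene and level, 44 passed the filter on low counts: 10 genes in all cells, 8 in astrocytes, 7 in microglia, 6 each in endothelial cells and neurons, 5 in oligodendrocytes and 2 in OPC. None was called in males, where 0.211% of all gene and level combinations were. None was called in females (0.00315% of all), over both sexes (0.0189%) or as a difference between the sexes (0.0315%).

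At an unadjusted p under 0.05 the members leaned one way in males: 22 of 44 were higher in THY-Tau22 males and 0 lower, against 9.04% higher and 6.54% lower over all genes and levels. In females 0 were higher and 5 lower, against 0.951% and 1.52%. The log2 fold change was positive in 43 of 44 in males, with a median of 0.74, and in 12 of 44 in females, with a median of -0.19; over all genes the medians were 0.01 and -0.01. The levels share libraries, so these counts are not independent.

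**Figure D4:**
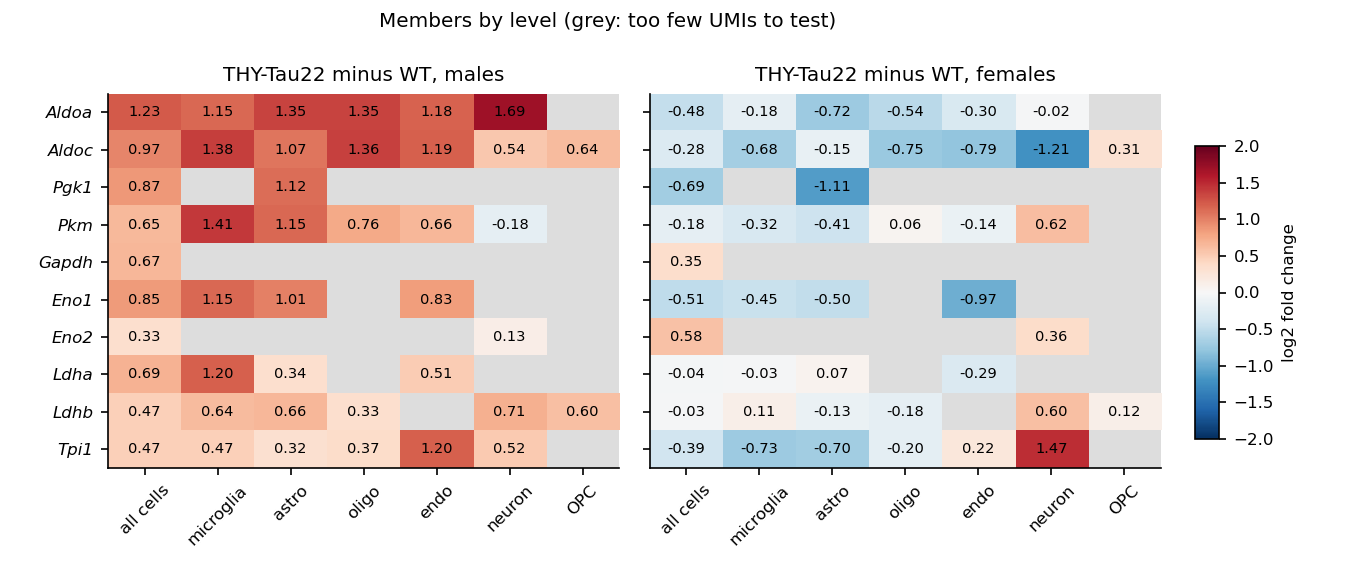
log2 fold change of THY-Tau22 against WT for each of the 10 genes (rows) and 7 levels (columns), males left and females right, by edgeR. Grey cells held too few UMIs to test. Of 44 values, 43 are above 0 in males and 12 in females, and none was called.

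In astrocytes of males, Aldoc was 1834, 2242 and 1849 CPM in the 3 WT libraries and 5044, 3701 and 6327 CPM in the 3 THY-Tau22 libraries. The groups did not overlap, as for 22.3% of all genes tested in astrocytes with THY-Tau22 males above. The log2 fold change was 1.07 ± 0.30 (SE; edgeR adjusted p = 0.147). In females WT libraries had 4544, 6013 and 1659 CPM and THY-Tau22 libraries 2649, 2258, 4404, 5211 and 2781 CPM, with a log2 fold change of -0.15 ± 0.27 (edgeR adjusted p = 1.00). The WT female range spanned that of all THY-Tau22 females. Over both sexes the value was 0.46 ± 0.20 (edgeR adjusted p = 0.937), and the difference between the sexes 1.22 ± 0.40 (edgeR adjusted p = 0.133).

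Pkm in microglia gave the smallest p in males. WT males had 37.2, 78.0 and 37.2 CPM from 45 UMIs, and THY-Tau22 males 148, 91.6 and 180.2 CPM from 129 UMIs. THY-Tau22 males were higher with no overlap, and so were all 7 genes tested in microglia of males, against 15.9% of all genes. The groups also stayed apart for 8 of 10 genes in all cells (22.4% of all genes), 5 of 8 in astrocytes (22.3%) and 4 of 6 in endothelial cells (18.9%). They did so for 1 of 5 in oligodendrocytes (21.7%), 1 of 2 in OPC (12.9%) and 0 of 6 in neurons (8.69%). For Pkm in microglia of males the log2 fold change was 1.41 ± 0.39 (edgeR adjusted p = 0.0668), and DESeq2 called it (adjusted p = 0.0421). In females the 3 WT libraries had 114, 139 and 39.6 CPM and the 5 THY-Tau22 libraries 29.7 to 94.0 CPM with a median of 80.9 CPM, which overlapped. The log2 fold change was -0.32 ± 0.35 (edgeR adjusted p = 1.00).

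Aldoa in oligodendrocytes of males stood at 61.4, 82.0 and 53.5 CPM in WT and 212, 87.4 and 294 CPM in THY-Tau22 libraries. The log2 fold change was 1.35 ± 0.41 (edgeR adjusted p = 0.106), with THY-Tau22 male 2 only just above the highest WT male. WT females had 138, 306 and 76.6 CPM and THY-Tau22 females 123, 42.6, 123, 129 and 128 CPM. The difference between the sexes was 1.89 ± 0.54 (edgeR adjusted p = 0.0745), the smallest of that contrast among the 10 genes. Aldoa in astrocytes differed between the sexes by 2.07 ± 0.60, Aldoc in oligodendrocytes by 2.11 ± 0.63, Aldoc in microglia by 2.06 ± 0.60 and Pkm in astrocytes by 1.56 ± 0.47 (edgeR adjusted p = 0.0981 to 0.168). Without THY-Tau22 male 3, the library with 31.2% unnamed cells, the first 3 of these were 1.21, 1.38 and 1.18. Without WT female 2, Aldoa in astrocytes was 1.37 and Aldoc in microglia 1.26. Aldoc outside astrocytes stood at the level of the astrocyte markers, as given above.

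**Figure D5:**
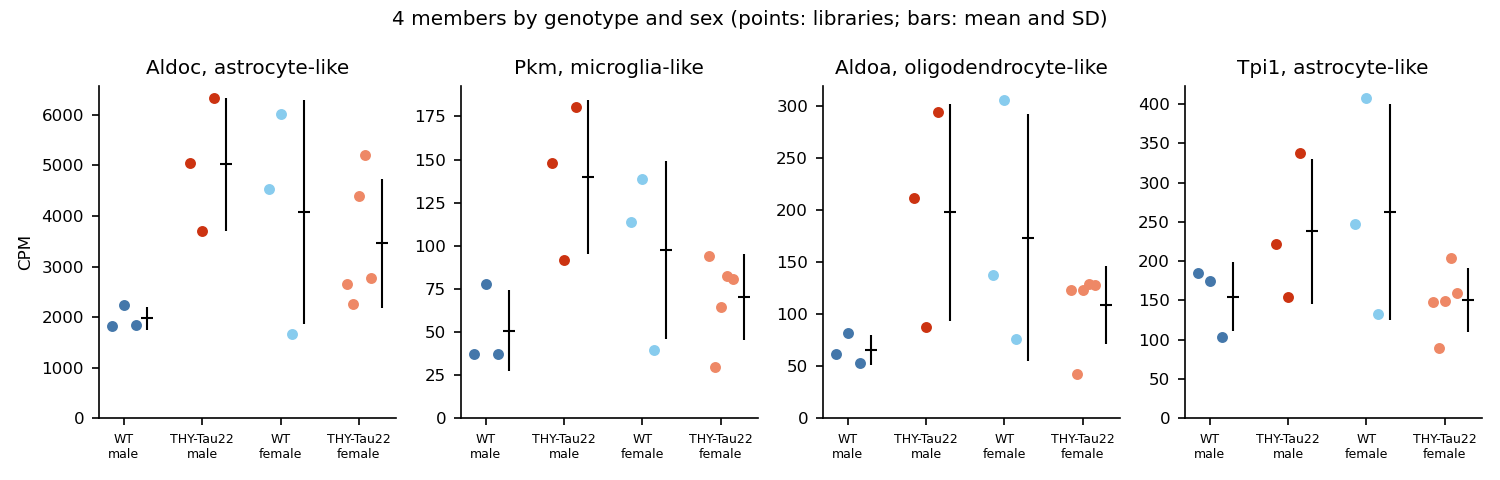
CPM of Aldoc and Tpi1 in astrocytes, Pkm in microglia and Aldoa in oligodendrocytes. Points are libraries, and bars are mean and SD of each group, with 3 libraries in each except 5 for THY-Tau22 females. Aldoc is at 1834 to 2242 CPM in WT males and 3701 to 6327 CPM in THY-Tau22 males, while WT females run from 1659 to 6013 CPM.

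Aldoa in neurons of males had a log2 fold change of 1.69 ± 0.53 (edgeR adjusted p = 0.391), which rested on THY-Tau22 male 3 at 752 CPM and was 0.47 without it. Pkm in astrocytes of males was 53.6, 77.3 and 41.5 CPM in WT and 111, 167 and 182 CPM in THY-Tau22 libraries, with 1.15 ± 0.36 (edgeR adjusted p = 0.151). In females the smallest p belonged to Tpi1 in astrocytes, at 247, 407 and 133 CPM in WT and 89.6 to 204 CPM in THY-Tau22 libraries, with -0.70 ± 0.29. Pgk1 in astrocytes (-1.11 ± 0.47), Aldoc in neurons (-1.21 ± 0.56), Eno1 in endothelial cells (-0.97 ± 0.45) and Tpi1 in microglia (-0.73 ± 0.35) followed (edgeR adjusted p = 0.997 to 1.00). Single WT females moved these values. Without WT female 2, Tpi1, Pgk1, Aldoc and Eno1 in the classes just named stood at -0.29, -0.36, -0.53 and -0.57, and without WT female 1 Tpi1 in microglia stood at -0.26 (-1.14 without WT female 3). The largest female value in size was positive: Tpi1 in neurons, at 25.8, 0 and 32.2 CPM from 7 UMIs in WT and 45.6 to 163 CPM in THY-Tau22 libraries, with 1.47 ± 0.79 (edgeR adjusted p = 0.999). It was the only combination of the 44 whose female groups did not overlap, against 2.63% of genes in neurons with THY-Tau22 females above. Over both sexes the leading values were Ldha in microglia (0.59 ± 0.25), Tpi1 in endothelial cells (0.71 ± 0.33), Aldoa in neurons (0.84 ± 0.39) and Pkm in microglia (0.55 ± 0.26), with edgeR adjusted p = 0.592 to 0.946. Without THY-Tau22 male 3, Ldha in microglia was 0.37 and Aldoa in neurons 0.24, and without WT female 3 Pkm in microglia was 0.34.

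Other gene groups moved with the same contrasts. In males, 71 of 76 ribosomal protein genes tested in all cells had a positive log2 fold change, with a median of 0.65, as had 84 of 91 nuclear genes of the respiratory chain (median 0.47) and 21 of 24 mitochondrially encoded genes (median 0.83). The 10 genes had a median of 0.68 in all cells, and all genes 0.01. In females the medians were -0.24 for ribosomal proteins, -0.15 for the respiratory chain, -0.38 for mitochondrially encoded genes and -0.23 for the 10 genes. In astrocytes of males the medians were 1.04 for the 8 genes tested, 0.59 for 47 ribosomal protein genes and 0.58 for 78 respiratory chain genes. In microglia, 8 of 61 ribosomal protein genes and 2 of 76 respiratory chain genes were called in males, among 62 genes in all (1.16% of those tested). The part of library make-up or quality in the values of the 10 genes was not tested. Of the 54 neighbouring genes, 49 were tested in all cells. In males 32 of them had a positive log2 fold change, against 51.2% of all genes. At an unadjusted edgeR p under 0.05, 4 were higher and 1 lower, against 9.04% and 6.36% of all genes. No neighbouring gene was called at any level in any contrast.

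The number of calls changed with the libraries and with the method. When males were fitted alone, 15 of 37 combinations were called, all higher in THY-Tau22 males, against 7.30% of all genes and levels. They were 5 of 7 genes in microglia (8.83% of all genes), 5 of 8 in astrocytes (13.5%) and 3 of 10 in all cells (6.08%). Aldoa alone was called in oligodendrocytes (8.90% of all genes) and in endothelial cells (7.12%). Without WT female 3, 6 were called in males (1.71% of all) and 21 as a difference between the sexes (8.87% of all). That library had the lowest Aldoc level in astrocytes, 1659 CPM, and the other 2 WT females 4544 and 6013 CPM. WT female 3 and THY-Tau22 female 5 bear the title tag MB22 and all other libraries MB21. Within MB21, 6 were called in males (1.70% of all), 15 as a difference between the sexes (6.18%) and none in females. Without WT female 2, 3 were called in males (0.760% of all). Without THY-Tau22 male 2, 3 were called in males (0.366%) and 2 as a difference between the sexes (0.140%). With no filter on low counts these were 3 (0.344%) and 2 (0.186%). DESeq2 called 1 in males (0.447%), Pkm in microglia, as did the fit that kept the shared library as a WT male (0.456%). MB22 holds 1 library of each genotype, so it gives no test.

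The isozyme shares were not called by genotype in any class. In 15 of 21 combinations of share and level that could be tested, 0 had an adjusted p under 0.05 by an exact two-sided permutation within sex, and 1 an unadjusted one. That was the Aldoc share of neurons, which was 22.1 percentage points lower in THY-Tau22 mice (permutation p = 0.00667, adjusted p = 0.10). It was 26.3, 38.5 and 66.7% in WT males and 21.4, 22.3 and 33.3% in THY-Tau22 males. In females it was 70.0 and 72.7% in the 2 WT and 41.7 to 51.2% in the 4 THY-Tau22 libraries with at least 10 UMIs. Among the libraries counted, the male groups overlapped and the female groups did not. UMIs were few, with 8 of Aldoc and 4 of Aldoa in WT male 4 and 14 and 6 in WT female 2. THY-Tau22 male 2 held 4 and 8. WT female 1 and THY-Tau22 female 4 fell under the limit of 10 UMIs, each with 1 of Aldoc and 8 of Aldoa. The part of free astrocyte transcripts in this share was not tested. In astrocytes, the Aldoc share was 95.6% in WT and 95.5% in THY-Tau22 males, beside the log2 fold change of 1.07 in the Aldoc level given above. The Ldhb share of microglia was 84.7 ± 2.16% in WT males and 78.7 ± 7.50% in THY-Tau22 males (3 against 3, exact permutation p = 0.400, smallest possible 0.10). In endothelial cells it was 19.3 ± 11.2% and 10.9 ± 3.74%, also with p = 0.400 by the exact permutation.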

How the data were processed

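By the study's account, the cortex of 16 mice was profiled by Drop-seq. Per the labels, reads were 3′ end cDNA of single cells with cell barcodes and UMIs, mapped to mm10; the authors deposited UMI counts, 1 table of 3000 barcodes per library, and the aligner was not given in the sources used here. The study used the standard Drop-seq pipeline. The unit of the deposited tables is the raw count, and CPM values were computed from them here.

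Barcodes with 200 to 7000 genes were kept; 28439 of 28530 such cells also had at most 5% mitochondrial mRNA, so that limit was an alternative. Cells were clustered (scanpy 1.11.5, Leiden resolution 0.5, 2500 variable genes without the 10 genes, their pathway or mitochondrial genes) and clusters named with at least 3 markers. Scrublet marked 1473 cells (5.16%); marked cells were kept, clusters with more than 50% marked stayed unnamed, and removing them was an alternative. Free transcripts were not removed.

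Genotype was tested on summed UMI counts by edgeR 4.0.16 (TMM, filterByExpr, quasi-likelihood, 4 group means, Benjamini-Hochberg over all genes of a level); DESeq2 1.42.0 was an alternative. The study's own Poisson-type test on cells was not used, as cells are not replicates. The study also tested interactions of sex and genotype with edgeR. It reports Aldoc in astrocytes as significant there, among candidates that it holds with lower confidence. Here the difference between the sexes was not called for Aldoc in astrocytes (edgeR adjusted p = 0.133). The study's interaction test was not repeated. On simulated counts for males, 89% of genes with a log2 change of 2 were recovered in all cells (11643 genes), 81% in astrocytes (4026) and 76% in neurons (2164), and 25, 23 and 13% of those with 1. Shares needed at least 10 UMIs per library. Level tests used a pseudocount of 10 CPM, and shares were tested as percentages without one. Class pairs were tested by exact sign-flips (numpy 2.4.6), and shares by genotype by exact permutation within sex. The named fold changes were those called, the 5 with the smallest p per contrast and Aldoc in astrocytes; likest genes were the 3 with the highest r. The members and lists were chosen with earlier results of these data known. Intervals and p-values cover the spread between these mice only. Replicate numbers follow accession order.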

Additional observations from a re-analysis of the deposited data

Results flagged for a closer look

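In oligodendrocytes, Aldoa of THY-Tau22 female 2 stood at 42.6 CPM, from 7 UMIs, while the other 4 THY-Tau22 females stood at 123 to 129 CPM. In endothelial cells, the Ldhb share of THY-Tau22 female 5 was 9.68%, from 3 Ldhb and 28 Ldha UMIs, against 20.0 to 20.8% in the other 3 THY-Tau22 females with enough UMIs. Both were marked because 1 library lay far from the rest of its group by Dixon's criterion, which was applied to 31 groups and marks about 1 in 20 by chance.

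The 17422 barcodes with fewer than 200 genes in the 14 libraries, which no comparison used, held 5213 UMIs of the 10 genes, or 1401 CPM pooled over libraries, against 1402 CPM pooled over the kept cells. Aldoc stood at 780.1 and 681 CPM, and Eno2 at 13.4 and 19.2 CPM, in the same order.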

How the results depend on the processing

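The number of calls among the 10 genes changed with the libraries and the method. In males 0 combinations of gene and level were called, against 1 by DESeq2, 1 with the shared library kept as a WT male, 3 without a filter on low counts, 6 without the MB22 libraries and 15 with each sex fitted alone; leaving out 1 library gave 0 to 6 (6 without WT female 3, 3 without WT female 2 and 3 without THY-Tau22 male 2). For the difference between the sexes 0 were called, against 2 without the filter and 15 without MB22, and 0 to 21 leaving out 1 library (21 without WT female 3, 2 without THY-Tau22 male 2). In females and over both sexes leaving out 1 library gave 0 to 0. The Aldoc share pairs went from 10 to 4 of 5 testable in cells with at least 500 genes, and the Ldhb pairs from 8 to 5 of 6; there the Eno2 pairs could not be tested. Leaving out 1 library gave 64 to 68 class pairs for levels, 9 to 11, 1 to 2 and 8 to 9 for the Aldoc, Eno2 and Ldhb shares, and 0 to 0 for shares by genotype. The cause of these shifts was not tested, except that the 500 gene limit leaves fewer UMIs.

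The log2 fold change of Aldoc in astrocytes of females turned from -0.15 to 0.02 in cells with at least 500 genes and ran from -0.45 to 0.16 when 1 library was left out (0.16 without WT female 2). Of 551 alternatives of the 22 named fold changes, 515 kept direction and call, 34 became called and 2 turned. No paired analysis was possible because the only number that titles share across groups, the animal number on WT male 1 and THY-Tau22 female 1, gives a single pair. Gapdh, Pgk1 and Eno2 counts limit what could be tested outside their highest class.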
